A study of Mus musculus with 12 samples.

Results

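The core genes of the circadian clock were examined in maps of H3K9ac, the acetylation of histone H3 on lysine 9 that accompanies active promoters, from mouse liver. They were chosen by symbol, as the 10 genes Arntl, Clock, Npas2, Per1, Per2, Cry1, Cry2, Nr1d1, Nr1d2 and Dbp, out of 21911 protein-coding symbols in the annotation, and all 10 were found. They were picked by name and not by a rule on their acetylation. The H3K9ac libraries came from adult livers of C57BL/6J (B6, 2 libraries), MSM/Ms (MSM, 2 libraries), and the reciprocal hybrids F1 BM (B6 as mother and MSM as father, 1 library) and F1 MB (MSM as mother and B6 as father, 1 library). No mouse carried a treatment or an engineered allele according to the labels. B6 is the inbred strain of the reference genome, MSM is an inbred strain derived from wild Japanese mice, and each B6 and MSM library came from a separate mouse. The 6 input libraries among the 12 samples were not analysed here. The labels do not give the time of day at which the livers were taken, so time of sampling and strain cannot be told apart in any comparison below.

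The mammalian clock is a feedback loop of transcription. The proteins of Arntl and Clock, or of Arntl and Npas2, bind as pairs to E-box sequences and activate the Per and Cry genes, whose products then inhibit those pairs. The same pairs activate Nr1d1 and Nr1d2, whose products (REV-ERB alpha and beta) repress Arntl through RORE sequences, and Dbp, whose product activates genes through D-box sequences. In liver the transcripts of these genes and the acetylation of their promoters are known to rise and fall over the day, with Arntl, Clock, Npas2 and Cry1 late in the night or early in the day and Nr1d1, Dbp and the Per genes later.

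The sequences through which the loop works were looked for in 9 of the 10 genes, those with an entry in the RefSeq promoter table of GRCm38, 250 bp before to 50 bp after each annotated start. Per2 had no entry. The letters searched on both strands were CACGTG for the E-box, TTATGTAA or TTACGTAA for the D-box and TAGGTCA or TGGGTCA for the RORE core. The 9 genes had 13 promoter windows, of which 2 held an E-box (Cry1 and Per1), 1 held a RORE core (Arntl) and 0 held a D-box. Over all 32851 RefSeq windows the shares were 7.15% for the E-box, 6.45% for the RORE core and 1.06% for the D-box. These 3 promoters are shown in the direction of the gene, with the match in capitals.
Arntl, chr7:113207261-113207560, plus strand: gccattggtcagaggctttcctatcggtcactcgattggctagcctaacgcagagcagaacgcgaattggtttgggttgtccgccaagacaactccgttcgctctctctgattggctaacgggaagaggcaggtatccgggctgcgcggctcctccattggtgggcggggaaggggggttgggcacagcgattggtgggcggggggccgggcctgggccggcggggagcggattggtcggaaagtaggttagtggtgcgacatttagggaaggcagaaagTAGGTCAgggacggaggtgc
Cry1, chr10:85185005-85185304, minus strand: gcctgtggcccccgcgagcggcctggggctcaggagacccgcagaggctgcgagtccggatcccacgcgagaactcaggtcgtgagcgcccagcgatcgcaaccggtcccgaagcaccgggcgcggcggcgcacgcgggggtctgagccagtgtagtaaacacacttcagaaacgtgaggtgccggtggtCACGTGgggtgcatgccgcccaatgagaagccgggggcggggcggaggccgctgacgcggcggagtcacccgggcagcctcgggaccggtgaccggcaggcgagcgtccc
Per1, chr11:69098699-69098998, plus strand: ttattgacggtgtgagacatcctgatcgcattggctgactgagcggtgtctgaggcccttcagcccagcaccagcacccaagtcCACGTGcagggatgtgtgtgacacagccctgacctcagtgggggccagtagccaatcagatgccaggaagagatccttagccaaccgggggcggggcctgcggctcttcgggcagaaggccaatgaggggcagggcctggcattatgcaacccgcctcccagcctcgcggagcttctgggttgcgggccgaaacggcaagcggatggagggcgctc

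The RORE core of Arntl began 76 bp downstream of its gene start and the E-box of Cry1 50 bp upstream of its own (position -50). The Per1 E-box began 3566 bp downstream of the start of the longest annotated Per1 gene, ahead of a second annotated start at 3731 bp. The same letters were then searched in 300 bp around the summits of peaks. At the highest promoter peak of each gene in B6 replicate 1, the list in which all 10 had one, a D-box stood at 1 gene (Nr1d2), and an E-box or RORE core at 0. The shares over all 9688 promoters with a peak in that library were 0.382% for the D-box, 4.49% for the E-box and 5.0% for the RORE core. Around the 58 summit positions of the 10 genes, a D-box stood in 3 windows (Nr1d2, Per1 and Per2), a RORE core in 6 (Arntl, Cry2, Dbp, Per1 and Per2) and an E-box in 1 (Cry2). The shares over all 22968 summits of B6 replicate 1 were 0.832% for the D-box, 6.11% for the RORE core and 4.55% for the E-box. The Per2 D-box began 222 bp after the gene start, at a summit listed in 4 libraries. The windows printed next are the intronic summit of Nr1d2, the upstream summit of Per1 and the intronic summit of Per2, all described further on. Of the 12 positions with a summit in all 6 lists, the first 2 are those that held a D-box and were chosen for it, and the Per2 position was chosen as the recurrent peak of a gene without a RefSeq promoter. Capitals mark a D-box, and the Per2 window held none of the motifs.
Nr1d2, chr14:18237916-18238215, minus strand: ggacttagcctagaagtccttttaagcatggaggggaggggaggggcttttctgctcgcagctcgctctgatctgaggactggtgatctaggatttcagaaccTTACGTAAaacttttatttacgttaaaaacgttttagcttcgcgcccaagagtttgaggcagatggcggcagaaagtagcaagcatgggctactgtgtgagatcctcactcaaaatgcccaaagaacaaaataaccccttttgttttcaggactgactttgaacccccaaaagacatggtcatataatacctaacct
Per1, chr11:69094467-69094766, plus strand: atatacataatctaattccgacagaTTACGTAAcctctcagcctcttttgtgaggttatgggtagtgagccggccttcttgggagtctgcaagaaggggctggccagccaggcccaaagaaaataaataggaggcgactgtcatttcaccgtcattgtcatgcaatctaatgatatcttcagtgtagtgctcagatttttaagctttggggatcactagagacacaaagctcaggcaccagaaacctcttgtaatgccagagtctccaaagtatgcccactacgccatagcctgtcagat
Per2, chr1:91456209-91456508, minus strand: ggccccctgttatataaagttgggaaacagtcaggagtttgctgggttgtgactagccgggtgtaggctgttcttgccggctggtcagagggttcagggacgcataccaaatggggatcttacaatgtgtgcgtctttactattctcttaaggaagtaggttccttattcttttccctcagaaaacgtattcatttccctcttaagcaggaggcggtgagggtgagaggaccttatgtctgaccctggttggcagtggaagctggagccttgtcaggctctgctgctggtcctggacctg

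All printed bases are those of the reference strain B6, and MSM bases were not analysed here. A match is only a run of letters and no occupancy by a factor was measured.

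The 6 lists differed in size. They held 11619 peaks (B6 replicate 2) to 22968 peaks (B6 replicate 1), and covered 6.28 to 16.0 Mb. The median fold enrichment at shared promoters was 4.39 (F1 BM) to 9.11 (B6 replicate 1). For this reason each gene's fold was also given as a relative log2 fold: the log2 of its highest promoter peak minus the library's median over the 5166 promoters with a promoter peak in all 6 lists. A promoter peak overlapped the 1 kb either side of the gene start, and the gene window was the gene body plus 5 kb around the start. Of 6 hepatocyte markers, 5 had a promoter peak in all 6 lists and Hnf4a had none at its gene start. Of 5 Kupffer cell and 4 non-liver markers, 0 had one in any list. Endothelial markers had a promoter peak at 0 to 4 of 5 genes per list, stellate cell markers at 0 or 1 of 4 and cholangiocyte markers at 0 or 1 of 3. The summed fold was 32.7 to 56.9 for the hepatocyte markers, 0 to 18.8 for the endothelial, 0 to 3.45 for the stellate cell and 0 to 7.19 for the cholangiocyte markers, and the part of other cell types in the values below was not tested. In whole liver, fewer acetylated cells and less acetylation per cell cannot be told apart.

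The clock genes were mostly acetylated. Of the 10 genes, 6 had a promoter peak in all 6 lists (Clock, Per1, Cry1, Cry2, Nr1d1 and Nr1d2), beside 23.6% of all protein-coding symbols. Per2 also had a peak in every list, but not always at its start. The number of the 10 genes with a promoter peak was 10 in B6 replicate 1, 8 in B6 replicate 2, 8 in MSM replicate 1, 8 in MSM replicate 2, and 9 and 7 in the F1 BM and F1 MB livers, while 27.9% to 44.2% of all promoters had one. Together the 6 lists placed 171 peaks in the 10 gene windows. Grouping summits less than 250 bp apart gave 58 summit positions, of which 12 had a summit in all 6 lists, at 6 genes. At these 12 positions the summits of the 6 lists lay within 21 to 176 bp of each other (median 88 bp). In contrast, 21 positions had a summit in 1 list alone, and 8 of these were in B6 replicate 1, the largest list. Of the clock gene summits within 1 kb of a start, 10 to 16 in each list, 0 lay nearer than 100 bp to it. Over all promoters the share was 3.45% to 4.37% in each list, so a count of 0 among so few is near that background.

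**Figure D1:**
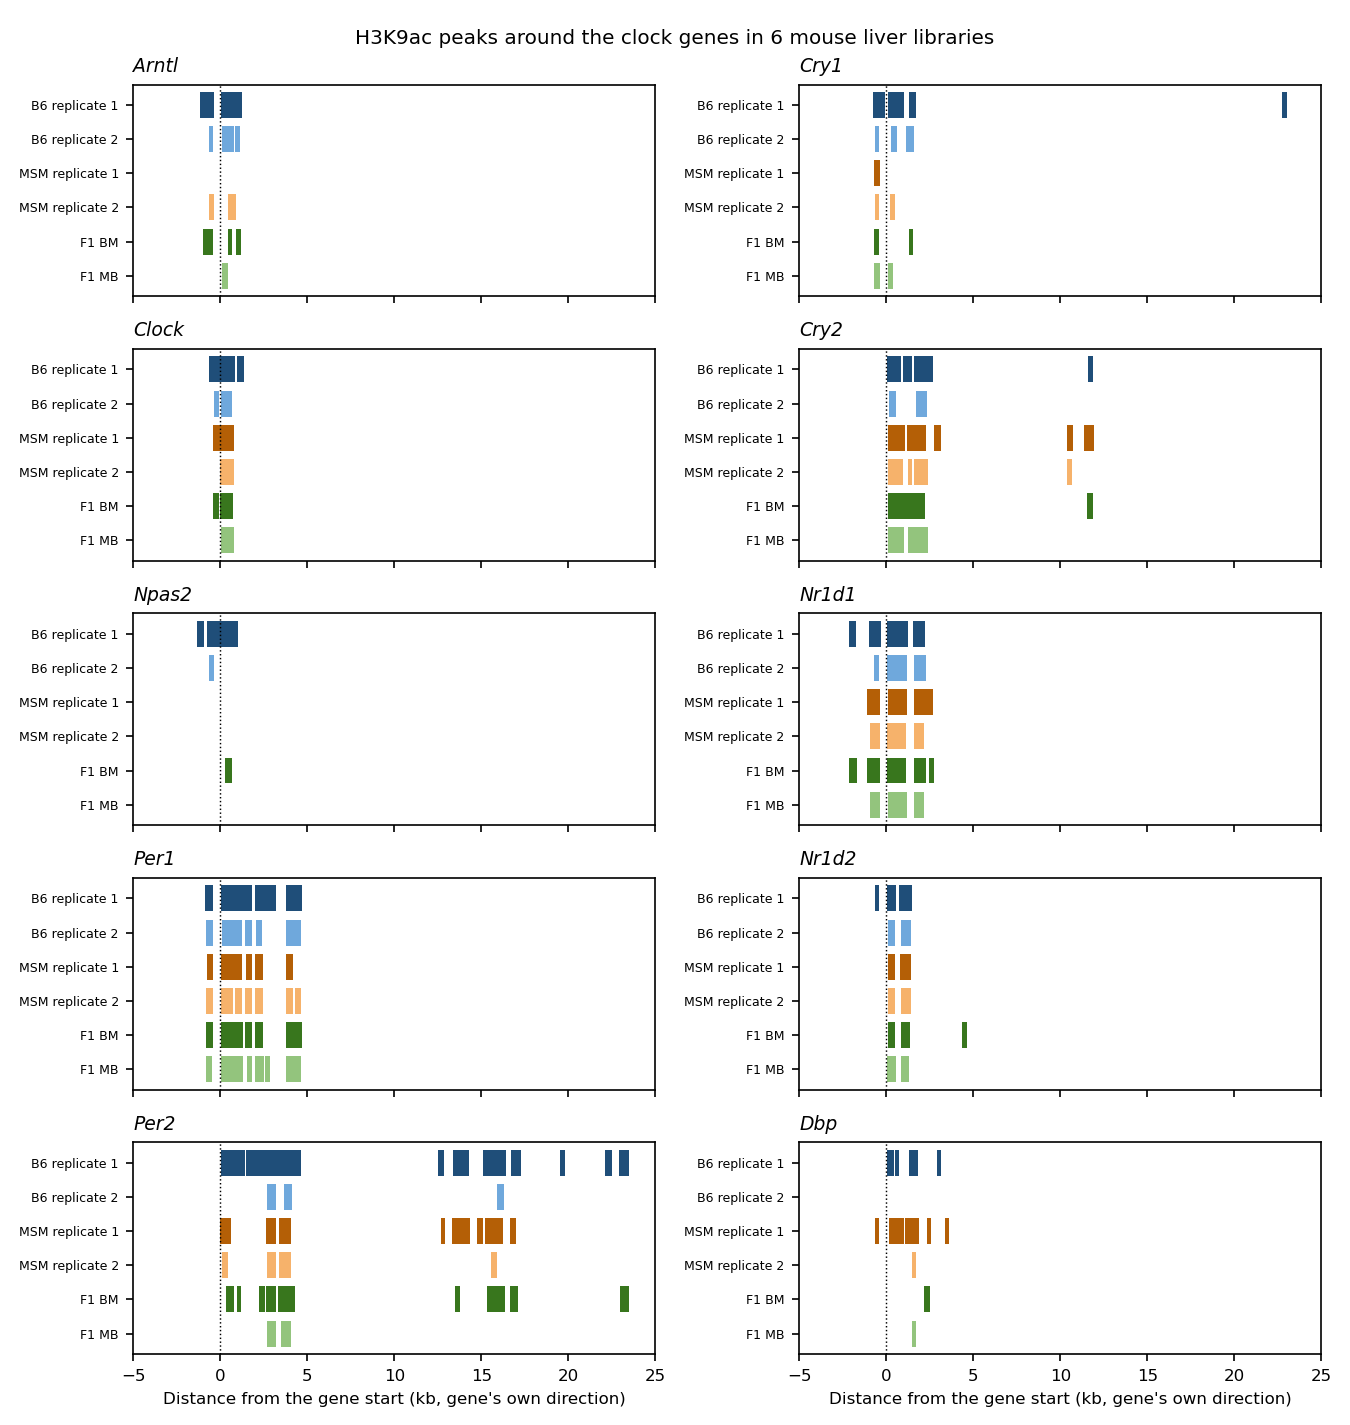
Peaks in the windows of the 10 clock genes, drawn as bars at their distance in kb from the gene start (dotted line) in the direction of the gene, with 1 row per library. Per1, Nr1d1 and Nr1d2 had peaks on the same stretches in all 6 libraries, Npas2 had peaks in 3 libraries, and the bars of Per2 reached beyond 20 kb in B6 replicate 1 and F1 BM.

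Among the activators, Clock had a promoter peak in every library, Arntl was acetylated in all libraries but MSM replicate 1, and Npas2 in both B6 libraries and neither MSM library. Clock (chr5:76209868-76304792, minus strand) had a promoter fold of 14.2 in B6 replicate 1 and 6.90 in B6 replicate 2, with 8.94 in MSM replicate 1 and 12.1 in MSM replicate 2, and 4.57 and 6.24 in the F1 BM and F1 MB livers. Its relative log2 fold was 0.64 and 0.40 in B6 and 0.41 and 0.83 in MSM, so the strains overlapped, with a difference (MSM minus B6) of 0.10, below the SD of 0.24 pooled within the strains (exact permutation p = 0.667, two-sided, n = 2 and 2). With the summit nearest the start in place of the highest, this difference was 0.70, and the strains overlapped there too. It was -0.03 without B6 replicate 2 and -0.10 without MSM replicate 2. In 5 of 6 lists its main summit lay 469 to 527 bp downstream of the start, in an intron, and in MSM replicate 1 it lay at 183 bp. A weaker summit upstream, which overlaps the annotated gene Gm7467, was listed in B6 replicate 2 and F1 BM.

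Arntl (chr7:113207465-113314126, plus strand), the gene of the obligate partner BMAL1, had a promoter fold of 8.57 and 4.76 in B6, 5.83 in MSM replicate 2, and 4.10 and 3.47 in the F1 BM and F1 MB livers, and no peak was listed in MSM replicate 1. Relative to the median of the promoters shared by all 6 lists, these values were close to 0 or under it, at -0.09, -0.14, -0.22, -0.10 and -0.70. Over all promoters with a peak in the list, the median was -0.35, -0.05, -0.20, -0.19 and -0.13 in the same order. Arntl was above that median in B6 replicate 1 and F1 BM, and below it in B6 replicate 2, MSM replicate 2 and F1 MB. Its peaks flanked the start. An upstream summit at -568 to -494 bp was listed in 4 libraries, and intronic summits lay 194 to 213, 483 to 526 and 985 to 1006 bp after it. The length under peaks was 1997 and 1226 bp in B6, 0 and 650 bp in MSM, and 1162 and 345 bp in the F1 BM and F1 MB livers. Both B6 livers thus had more than both MSM livers, F1 BM lay between the strains, and F1 MB lay between the MSM libraries.

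Npas2 (chr1:39193731-39363236, plus strand), a relative of Clock that can take its place, had a promoter fold of 13.0 in B6 replicate 1, 5.25 in B6 replicate 2 and 3.01 in F1 BM. No peak was listed in its window in either MSM library or in F1 MB. The summits of the B6 libraries lay upstream, at -507 and -545 bp for the stronger peak, whereas that of F1 BM lay 583 bp downstream in the untranslated region. The length under peaks was 2232 and 327 bp in B6 and 382 bp in F1 BM. Npas2 was the only one of the 10 genes with a promoter peak in both libraries of B6 and neither of MSM, a pattern found at 1.86% of the 9941 promoters with a peak in any of the 4 parental libraries. The opposite pattern, in MSM alone, was found at 0 of the 10 genes and at 0.644% of those promoters. F1 BM and F1 MB carry the same autosomes of both strains and differed here, but with 1 liver for each cross this difference has no replicate check.

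**Figure D2:**
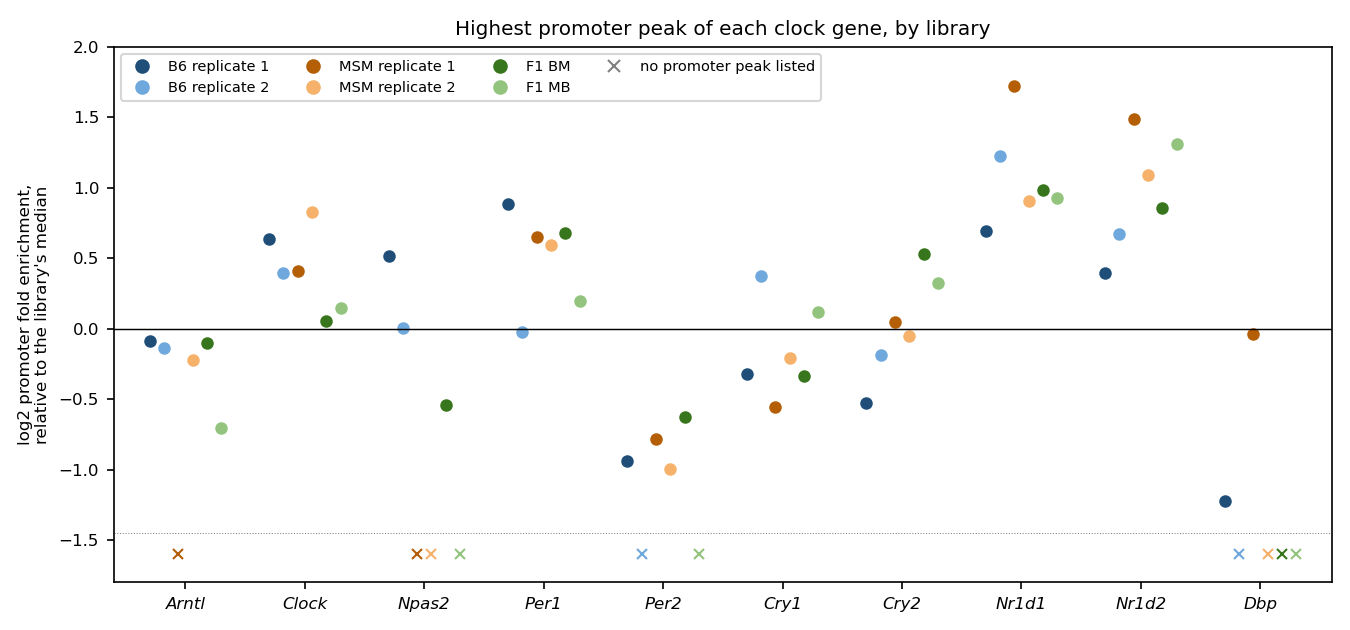
Relative log2 promoter fold (vertical axis: log2 fold enrichment of the highest promoter peak minus the library's median) of the 10 clock genes, with 1 point per library and crosses at the bottom where no promoter peak was listed. Nr1d1 and Nr1d2 lie above the median promoter (0) in all 6 libraries, Per2 below it wherever it has a promoter peak, and the B6 and MSM points of Nr1d2 do not overlap.

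The 4 genes of the inhibitors differed in where they were acetylated. Per1 (chr11:69095217-69109960, plus strand) had the most regular pattern, with 4 summit positions shared by all 6 lists. They lay 601 bp upstream of the start (position -601; range 21 bp; this is the Per1 window printed above) and at 270, 2199 and 3959 bp downstream in introns of the longest gene model. The last of these lies just past the second annotated start and the E-box shown above. At this position the fold was 6.24 and 5.30 in B6, 4.31 and 6.14 in MSM, and 5.33 and 8.27 in the F1 BM and F1 MB livers. The promoter fold of Per1 was 16.8 and 5.16 in B6, 10.6 and 10.3 in MSM, and 7.05 and 6.46 in the F1 BM and F1 MB livers. The value of B6 replicate 2 is that of the upstream summit, and at the summit near 270 bp, the highest promoter summit in the other 5 libraries, it had 4.50. The B6 livers lay on either side of the MSM livers, and the difference in relative log2 fold of 0.19 was below the pooled SD of 0.45 (exact permutation p = 1). Its direction depended on the B6 liver, with -0.27 without B6 replicate 2 and 0.65 without B6 replicate 1. Between 2759 and 4392 bp of its window lay under peaks.

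Per2 (chr1:91415982-91459324, minus strand) was weakly marked at its start. A promoter peak was listed in 4 of 6 libraries, with a fold of 4.75 (B6 replicate 1), 3.90 and 3.42 (MSM) and 2.84 (F1 BM), at the 1.90 to 7.49 percentile of shared promoters. Its recurrent peak lay instead in an intron, with summits 2945 to 3023 bp downstream of the start in all 6 lists. The fold there was 10.9 and 8.18 in B6, 6.95 and 8.38 in MSM, and 5.98 and 7.20 in the F1 BM and F1 MB livers, so the strains overlapped. A second intronic group near 16 kb (15687 to 16179 bp) was listed in 5 libraries, all but F1 MB, and reached a fold of 11.97 in B6 replicate 1. The length under peaks in the Per2 window had the widest range in bp of the 10 genes, from 1080 bp in F1 MB and 1358 bp in B6 replicate 2 to 9033 bp in B6 replicate 1. This spread within B6 (SD 5427 bp, n = 2) exceeded the strain difference (MSM minus B6) of -1782 bp, which turned to 2055.5 bp without B6 replicate 1.

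Cry1 (chr10:85131700-85185064, minus strand) and Cry2 (chr2:92403646-92434043, minus strand), which encode the cryptochrome repressors, had promoter peaks in every list. The Cry1 upstream summit was placed within 21 bp in the 6 libraries, at -585 to -564 bp from the start, with a fold of 7.30 and 6.79 in B6, 4.57 and 5.90 in MSM, and 3.48 and 6.12 in the F1 BM and F1 MB livers. Scaled to each library the relative log2 fold was -0.32 and 0.37 in B6 and -0.56 and -0.21 in MSM, so the strains overlapped (difference -0.41, pooled SD 0.39, exact permutation p = 0.667). The size of this difference depended on the B6 liver, with -0.76 without B6 replicate 1 and -0.07 without B6 replicate 2. The peaks downstream of the Cry1 start were fewer in MSM. A summit 217 to 400 bp after the start, in the untranslated region, was listed in both B6 libraries, MSM replicate 2 and F1 MB. Another at 1381 to 1489 bp, in an intron, was listed in both B6 libraries and F1 BM but in neither MSM library. A Cry2 summit shared by all 6 lists lay 1780 to 1888 bp downstream, where the annotation also holds D930015M05Rik. There the fold was 7.73 and 4.63 in B6, 7.19 and 6.32 in MSM, and 6.35 and 9.65 in the F1 BM and F1 MB livers. The Cry2 relative log2 promoter fold was -0.53 and -0.19 in B6, 0.05 and -0.05 in MSM, and 0.53 and 0.32 in the F1 BM and F1 MB livers. The F1 BM value is that of 1 long peak whose summit is the downstream one just described, so it cannot be set beside the parental values, which come from peaks with a summit 203 to 288 bp after the start. MSM did not overlap B6, but the strain difference of 0.36 (pooled SD 0.18, exact permutation p = 0.33) was below the 0.5 asked of a call. This Cry2 difference was 0.19 without B6 replicate 1 and 0.52, above that limit, without B6 replicate 2.

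The REV-ERB genes had the highest promoter fold of the clock genes, relative to each library and averaged over the 6. Nr1d1 (chr11:98767932-98775333, minus strand) had a promoter fold of 14.7 and 12.3 in B6, 22.2 and 12.7 in MSM, and 8.70 and 10.7 in the F1 BM and F1 MB livers, at the 91.0 to 99.99 percentile of the 5166 shared promoters. Its strongest summit lay 661 to 837 bp downstream in an intron, followed by a second at 1779 to 1939 bp and an upstream one at -595 to -471 bp, each in all 6 lists. The strains overlapped, with a difference in relative log2 fold of 0.35 and a pooled SD of 0.49 (exact permutation p = 0.667). Its sign was not stable: the difference was -0.11 at the summit nearest the start, -0.05 without MSM replicate 1 and 0.77 without MSM replicate 2.

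Nr1d2 (chr14:18204054-18239127, minus strand) had a promoter fold of 11.98 and 8.33 in B6, 18.8 and 14.5 in MSM, and 7.97 and 14.0 in the F1 BM and F1 MB livers. Both MSM livers were above both B6 livers, and the same held for the relative log2 fold, which was 0.40 and 0.67 in B6, 1.49 and 1.09 in MSM, and 0.86 and 1.31 in the F1 BM and F1 MB livers. The strain difference was 0.76 (pooled SD 0.24; two-sided exact permutation p = 0.33, the smallest that 2 against 2 can give). On the relative scale F1 BM lay between the strains and F1 MB between the MSM libraries. Unscaled, F1 BM (7.97) was below both B6 livers and F1 MB (14.0) was below both MSM livers. The difference was at the summit 275 to 314 bp after the start, in the untranslated region, where the fold was 11.5 and 8.33 in B6 and 18.8 and 14.5 in MSM. At the next summit, 950 to 1126 bp after the start in an intron (the Nr1d2 window printed above, with its D-box), the fold was 11.98 and 5.61 in B6 and 4.97 and 5.64 in MSM, and the strains overlapped. The length under Nr1d2 peaks was 1490 and 962 bp in B6 and 1026 and 1052 bp in MSM, so it overlapped too.

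**Figure D3:**
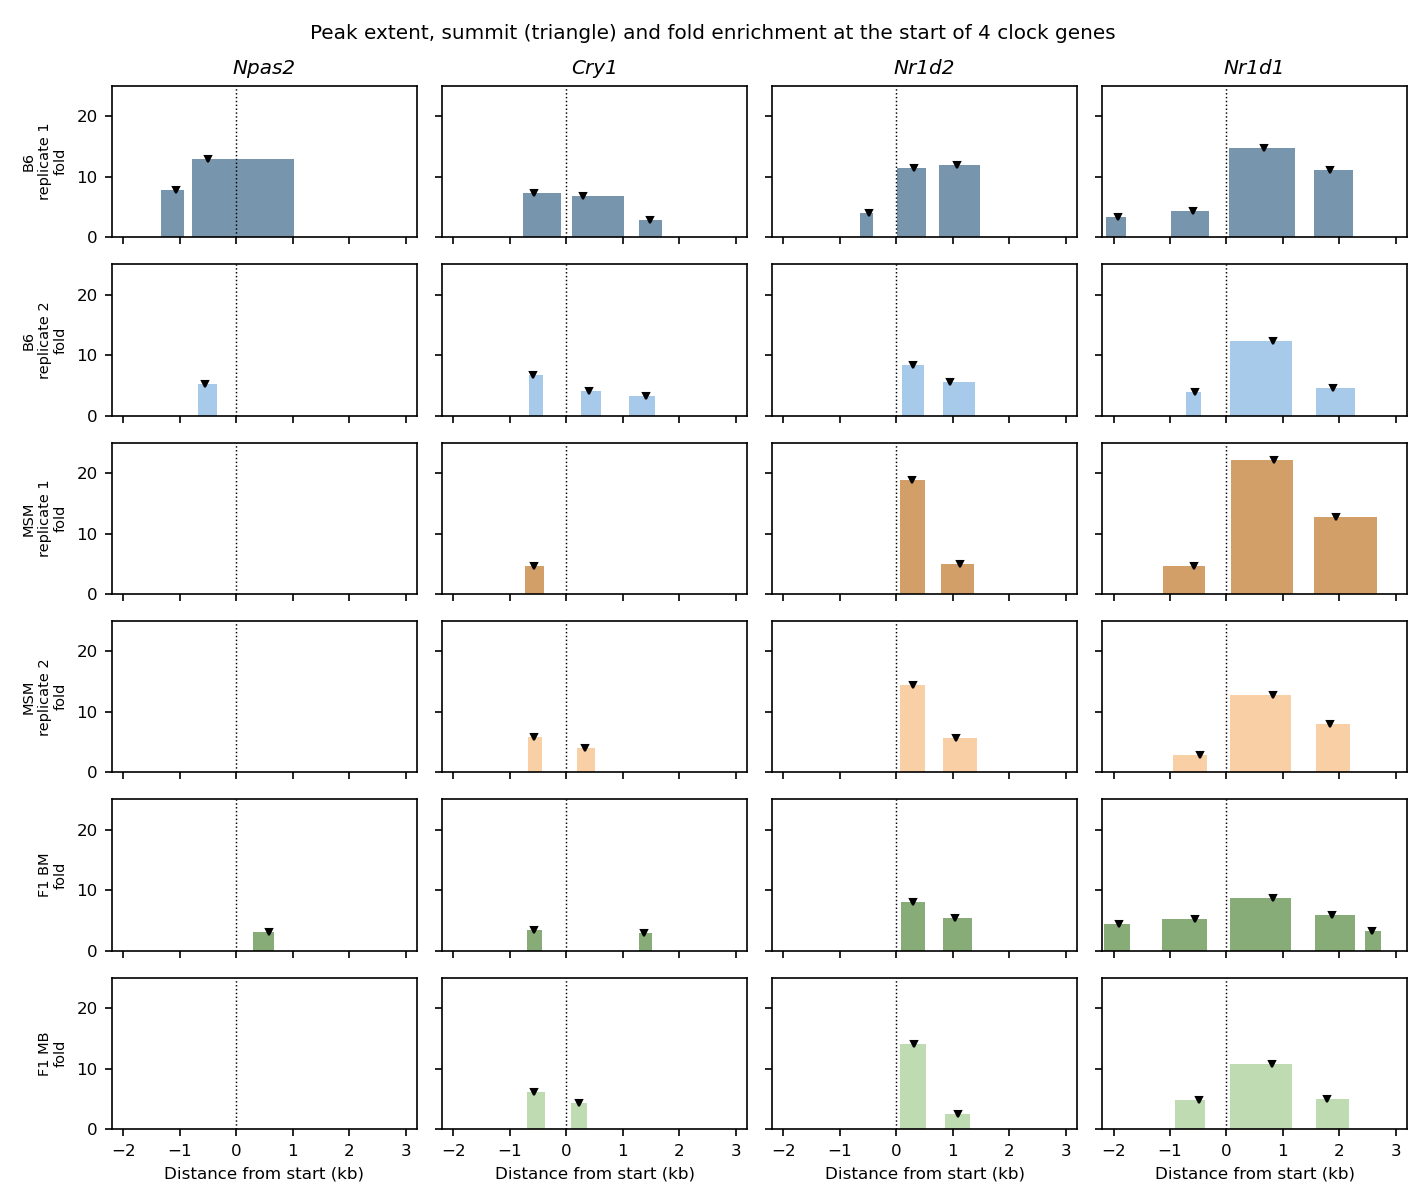
Peaks near the start of Npas2, Cry1, Nr1d2 and Nr1d1 in each library (rows), drawn from their first to last base at their distance in kb from the gene start (dotted line), with height equal to the fold enrichment and triangles at the summits. The first Nr1d2 peak downstream of the start is taller in MSM (18.8 and 14.5) than in B6 (11.5 and 8.33), and the Cry1 peak beyond 1 kb is present in both B6 libraries and in F1 BM.

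Dbp (chr7:45705088-45710203, plus strand), the clock-driven activator of liver output genes, had a promoter peak in the fewest libraries of the 10. Such a peak was listed in B6 replicate 1 (fold 3.91) and MSM replicate 1 (fold 6.55) only, and no peak at all in B6 replicate 2. Its most frequent summit lay 1546 to 1661 bp downstream in a coding exon, with a fold of 6.09 in B6 replicate 1, 10.6 and 4.38 in MSM and 5.0 in F1 MB. The length under peaks was 1418 and 0 bp in B6, 2344 and 248 bp in MSM, and 343 and 247 bp in the F1 BM and F1 MB livers. Within each strain 1 liver had much acetylation and the other little, so the strains overlapped.

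Strain differences were then counted by fixed rules of size, each set beside its share over all genes that could be called. A promoter fold was called different when both libraries of a strain exceeded both of the other and the mean relative log2 folds were at least 0.5 apart. Of the 6 clock genes with a promoter peak in all 4 parental libraries, 1 was higher in MSM (Nr1d2) and 0 in B6, beside 7.65% and 8.28% of 5579 promoters. The median difference (MSM minus B6) was 0.27 over these 6 genes, of which 5 were above 0. Over all 5579 promoters it was -0.0032, and 2767 of them were above 0. Among the 5 genes, the sign at Clock, Per1 and Nr1d1 turned when 1 library was left out. The acetylated domain, made by joining peaks no more than 500 bp apart, was called to reach further when both libraries of a strain extended at least 200 bp beyond both of the other. Downstream, this called 1 clock gene further in B6 (Cry1) and 0 in MSM, beside 5.65% and 2.16% of 5186 promoters. Upstream it called 0 in B6 and 0 in MSM, beside 4.8% and 0.829%. The Cry1 domain ended 1692 and 1575 bp downstream of the start in B6 and 508 bp downstream in MSM replicate 2, while in MSM replicate 1 it ended before the start (reach -397 bp). In the F1 livers the reach was -438 bp in F1 BM and 364 bp in F1 MB. These ends depend on the joining of peaks: in B6 replicate 2 a peak ending at 608 bp was joined to one starting at 1107 bp, just within the limit, whereas a peak of F1 BM at 1286 to 1519 bp was left unjoined. Leaving out a library can only keep or widen the gap in reach between strains already apart, so the Cry1 call could not be lost. For fold, fewer libraries make non-overlap easier to meet, so mainly the size limit of 0.5 could fail. The Nr1d2 difference was 0.62 without B6 replicate 1, 0.88 without B6 replicate 2, 0.56 without MSM replicate 1 and 0.96 without MSM replicate 2. When 1 parental library was left out, the fold rule called 3 genes without B6 replicate 1, without B6 replicate 2 or without MSM replicate 2, and Nr1d2 was among them each time. The domain rule then called 4 without B6 replicate 1, 5 without B6 replicate 2, 3 without MSM replicate 1 and 3 without MSM replicate 2, Cry1 each time included, but it called 0 when peaks were not joined.

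The length under peaks was called different when the strains did not overlap and the means differed at least 1.5-fold. This called 3 of 10 clock genes with more length in B6 (Arntl, Npas2 and Cry1) and 0 with more in MSM, beside 9.32% and 3.78% of 11446 genes. Cry1 had 2332 and 1075 bp in B6, 341 and 584 bp in MSM, and 489 and 582 bp in the F1 BM and F1 MB livers. The 3 genes were a subset of the 4 whose transcripts are known to peak late in the night or early in the day, of which Clock overlapped between the strains (1894 and 908 bp in B6, 1211 and 780 bp in MSM). B6 replicate 1 had the longest coverage both overall (16.0 Mb) and at all 3 genes. B6 replicate 2 had the shortest coverage overall (6.28 Mb, against 9.66 and 9.69 Mb in MSM) and more than both MSM libraries at each of the 3. With each list limited to the same covered length, the lengths in B6 and MSM were 804 and 1226 against 0 and 235 bp at Arntl, 1821 and 327 against 0 and 0 bp at Npas2, and 688 and 1075 against 341 and 262 bp at Cry1. The part of list size and of time of sampling in these lengths was not tested. Leaving out a library cannot make strains that are apart overlap, so at these 3 genes only the 1.5-fold limit could fail. At Npas2, with 0 bp in both MSM libraries, that limit could not fail either. These 3 were called whichever library was left out, while the count was 6 without B6 replicate 1, 6 without B6 replicate 2 and 5 without MSM replicate 2.

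**Figure D4:**
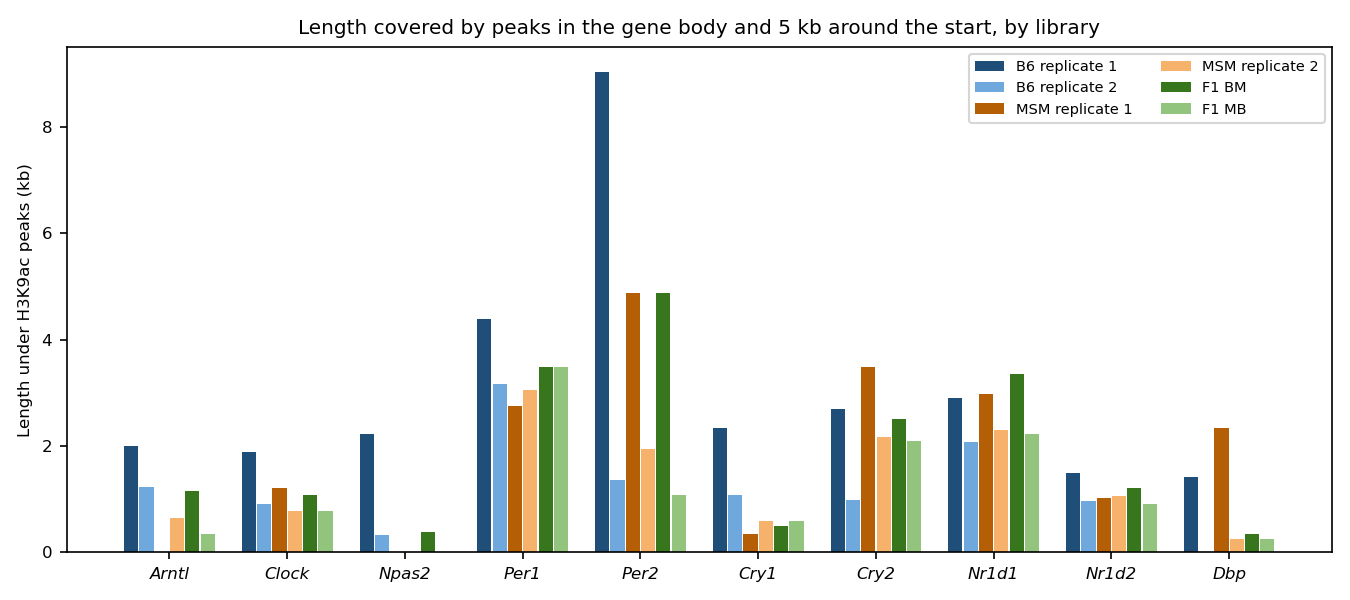
Length in kb under H3K9ac peaks in the gene body and 5 kb around the start of each clock gene, with 1 bar per library. At Arntl, Npas2 and Cry1 both B6 bars are above both MSM bars, while at Per2 and Dbp the replicates of a strain differ more than the strains.

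Since the genes peak at opposite times of day, the libraries were also compared within themselves. Of the 4 genes of the Arntl phase (Arntl, Clock, Npas2 and Cry1), 4 had a promoter peak in B6 replicate 1, 4 in B6 replicate 2, 2 in MSM replicate 1, 3 in MSM replicate 2, and 4 and 3 in the F1 BM and F1 MB livers. Of the 5 of the opposite phase (Per1, Per2, Nr1d1, Nr1d2 and Dbp) the numbers were 5, 3, 5, 4, 4 and 3 in the same order. Over all promoters the shares with a peak were 44.2%, 27.9%, 35.5%, 36.2%, 35.3% and 31.7%, again in that order. MSM replicate 1 thus had peaks at all 5 genes of one phase and at 2 of 4 of the other, whereas B6 replicate 2 had 3 of 5 and 4 of 4. These were the most opposed lists, B6 replicate 1 had peaks at all genes of both groups, and the contrast was not tested. Among genes with a promoter peak in all 6 lists, the mean relative log2 fold of Per1, Nr1d1 and Nr1d2 exceeded that of Clock and Cry1 by 0.50 and 0.24 in B6, 1.36 and 0.55 in MSM, and 0.98 and 0.68 in the F1 BM and F1 MB livers. Both MSM values were above both B6 values, by 0.59 on average, and the MSM livers differed from each other by more than that. With the summit nearest the start in place of the highest, the values were -0.06 and 0.55 in B6 and 0.61 and 0.11 in MSM, so the direction turned in B6 replicate 1 and the strains overlapped, with a difference of 0.12. Without Cry1 they were 0.02 and 0.23 in B6 and 0.87 and 0.03 in MSM, and the strains overlapped as well. These are 5 genes chosen by name, and no test was made of the score.

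**Figure D5:**
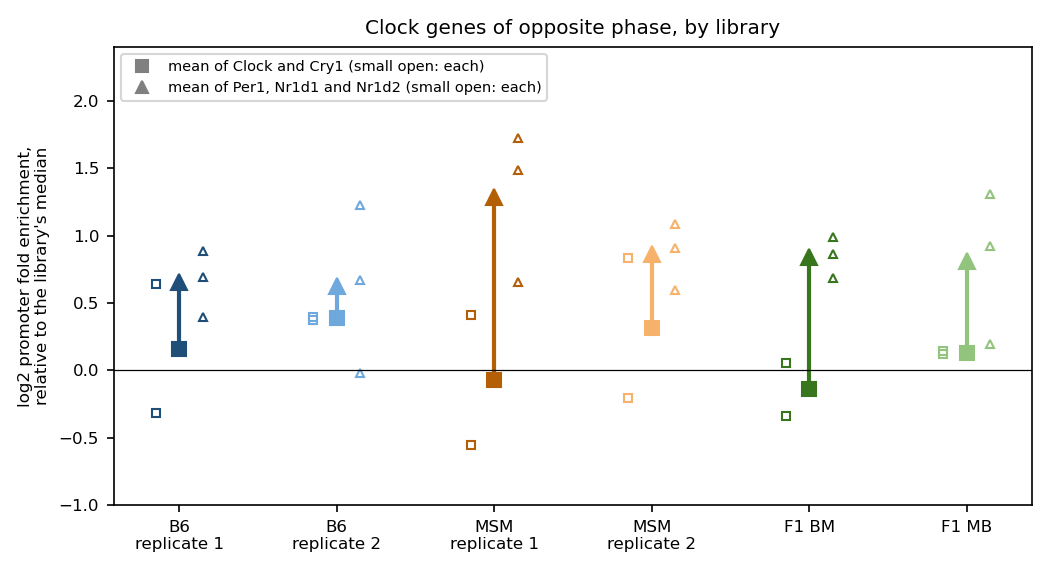
Relative log2 promoter fold (vertical axis) in each library, as means of Clock and Cry1 (squares) and of Per1, Nr1d1 and Nr1d2 (triangles), with each gene as a small open symbol. With the highest promoter peak of each gene, as drawn, the triangle mean is above the square mean in all 6 libraries, by 0.24 in B6 replicate 2 up to 1.36 in MSM replicate 1.

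A list of 18 further genes of the pathway gave the setting of the 10. Of these, 6 had a promoter peak in all 6 lists, among them Bhlhe40, Nfil3 and Tef, beside 23.6% of all symbols, and 3 (Ciart, Rorb and Arntl2) had no peak in their window in any list. Among the 6, Bhlhe40, an E-box-binding repressor, had the highest mean relative log2 fold, with 1.03 and 0.20 in B6, 0.92 and 1.07 in MSM, and 0.57 and 1.39 in the F1 BM and F1 MB livers. Tef, a relative of Dbp, had the lowest mean and was the only one of 8 callable genes whose fold was called between the strains, beside 7.65% of promoters called in MSM and 8.28% in B6. Its relative log2 fold was -0.30 and -0.49 in B6, 0.47 and -0.11 in MSM, and -0.06 and 0.04 in the F1 BM and F1 MB livers, so that MSM was higher. This holds after scaling only: the unscaled promoter fold was 7.39 and 3.72 in B6 and 9.33 and 6.29 in MSM, and the strains overlapped. The MSM mean rests on MSM replicate 1, since MSM replicate 2 alone is within 0.5 of both B6 values. By length under peaks 1 of 15 was called higher in MSM (3.78% of all genes), Per3, with 359 and 0 bp in B6 and 720 and 508 bp in MSM. The third Period gene had 231 bp in F1 BM and 272 bp in F1 MB. Timeless was called higher in B6 by length (352 and 493 bp, against 263 and 214 bp in MSM), as 1 of 15 genes beside 9.32% of all, and by downstream reach, as 1 of 8 beside 5.65%. These counts of 1 are near the background. The median difference in relative log2 fold between the strains was 0.03 over 8 genes of this list.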

How the data were processed

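H3K9ac ChIP-seq libraries (ab4441, 50-bp read pairs) of 6 livers were used. The authors trimmed reads with Trim Galore and called peaks per library, unpooled. The submitters' processing notes name HISAT2, SAMtools and MACS2, whereas the study's methods name Bowtie 2, and these were not reconciled. Reads of both strains were mapped to mm10 (GRCm38), the B6 sequence, so MSM reads over differing sequence may be lost. Whether input served as control is not given in the sources used here. The deposited lists gave each peak's fold enrichment (a linear ratio) and, in the authors' files, −log10 p and −log10 q; the deposited score was not used. The lists ended near a q-value of 0.05 and hold no counts, and an unlisted peak may be below the threshold. The study gives a range of read pairs for its ChIP libraries, but depth was not set beside the lists here.

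Gene starts were those of the longest gene of each symbol in GENCODE M21. Peaks were matched by at least 1 shared base in Python 3.11.15 (numpy 2.4.6, matplotlib 3.10.9, scipy 1.17.1). Functions were tested on simulated data. Single values were tested by two-sided exact permutation over the 6 assignments of 4 parental libraries (smallest p 0.33, so none can pass 0.05). Members and lists were chosen with earlier results of these data known. All 10 clock genes were named, and of the other lists the highest, the lowest and those called. A likeness rule set for Arntl and Dbp could not be applied, since neither had a promoter peak in all lists. By the lists that held a promoter peak alone, 92 other genes had the pattern of Arntl and 181 that of Dbp. The 100 bp limit for summits near a start was chosen after seeing the data.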

Additional observations from a re-analysis of the deposited data

How the results depend on the processing

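The 6 genes with a promoter peak in all lists stayed 6 with promoter windows of 500 or 2000 bp, stricter peaks, equal numbers of peaks or any annotated start. Alternatives chosen after seeing the data gave 7 with a peak anywhere in the window (Per2 added) and 6 to 7 without 1 parental library (Arntl added without MSM replicate 1). For promoter fold, 1 gene (Nr1d2) was called, 2 by percentile rank (Cry2 added), 0 with a difference of at least 1 asked, and 1 to 3 when 1 parental library was left out. Without B6 replicate 1 it was 3 (Per1, Cry1, Nr1d2), without B6 replicate 2 it was 3 (Cry2, Nr1d1, Nr1d2) and without MSM replicate 2 it was 3 (Cry1, Nr1d1, Nr1d2), so Nr1d2 was kept in each. Replicate numbers did not pair the livers (correlation of deviations -0.02 over 5166 promoters). The rule taken within each replicate number also gave 1, but any gene called by the main rule passes it, so Nr1d2 could not be lost. For domain reach, the count of 1 (Cry1) became 0 with no joining of peaks and 3 to 5 when a library was left out, with Cry1 kept in each of those. It was 4 without B6 replicate 1, 5 without B6 replicate 2, 3 without MSM replicate 1 and 3 without MSM replicate 2. For covered length, the count of 3 was 4 to 6 when a library was left out, with Arntl, Npas2 and Cry1 kept, and 4 at equal covered length (Cry2 added, higher in MSM). It was 6 without B6 replicate 1, 6 without B6 replicate 2 and 5 without MSM replicate 2. The difference between the phase groups of 0.59 was 23.4 percentile points by rank, 0.12 at the summit nearest the start and 0.33 without Cry1, and the strains overlapped in both of the last cases. Among single genes, the Clock difference was 0.70 at the summit nearest the start (from 0.10) and the Per1 difference -0.27 without B6 replicate 2 (from 0.19). The sign of the Clock, Per1 and Nr1d1 strain differences in relative log2 fold, none of them called, turned when 1 library was left out. The causes were not tested. A lone library left in a strain is assumed to vary like the others. Leaving out a library cannot make strains that are apart overlap in reach or length, so keeping Cry1 by domain reach was fixed in advance. So was keeping Npas2 by length, and the fold rule too is easier to meet with fewer libraries.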

Other observations

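Of 12 liver genes known to follow the clock, 4 had a promoter peak in all 6 lists (Noct, Alas1, Cyp7a1 and Avpr1a), beside 23.6% of all protein-coding symbols. Alas1, the first enzyme of heme synthesis, had the highest mean relative log2 fold of these, with 0.37 and 1.33 in B6, 0.26 and 0.78 in MSM, and 1.69 and 0.86 in the F1 BM and F1 MB livers, and the strains overlapped. Cyp7a1, the rate-limiting enzyme of bile acid synthesis, had the lowest, with -1.51 and -0.79 in B6, -0.42 and -1.43 in MSM, and 0.55 and -0.27 in the F1 BM and F1 MB livers. On this scale both hybrids were above all 4 parental livers at Cyp7a1, but the unscaled promoter fold of F1 MB (4.67) was below that of MSM replicate 1 (5.03), and the difference between hybrids and parents was not tested.

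By length under peaks, 3 of 11 of these genes were called higher in MSM and 1 higher in B6, beside 3.78% and 9.32% of all genes. Nampt, the rate-limiting enzyme of NAD salvage, had 1322 and 680 bp in B6, 1569 and 1673 bp in MSM, and 1095 and 1075 bp in the F1 BM and F1 MB livers. Wee1, a cell cycle kinase, had 536 and 289 bp in B6, 665 and 767 bp in MSM, and 443 and 0 bp in the F1 BM and F1 MB livers. Alas1 had 4504 and 1532 bp in B6 and 6570 and 5503 bp in MSM. Cyp7a1 had 1250 and 662 bp in B6, 563 and 530 bp in MSM, and 2117 and 1253 bp in the F1 BM and F1 MB livers. By promoter fold, 0 of the 4 callable genes was called in either direction, and these are rules of size with no test.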
